A study of Mus musculus with 11 samples.

Results

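The 10 genes described here were listed as lipid storage genes of the lung mesenchyme. They are Pparg, Cebpa and Ppargc1a, which act in transcription; Cd36 and Lpl, which act in fatty acid uptake; Fabp4 and Fabp5, which bind fatty acids inside the cell; Plin2 and Plin4, which coat lipid droplets; and Pnpla2, which breaks the stored triglyceride down. The members were taken by symbol, 10 of the 24062 gene rows counted, and each was compared with Csf1r, the receptor that macrophages need for survival. The RNA came from primary mesenchymal cells of embryonic day 15 mouse lungs, and 11 libraries were made from it. There were 4 Sp3+/+ (WT), 4 Sp3+/- and 3 Sp3-/- libraries. Sp3 encodes a zinc finger transcription factor. The embryos came from Sp3 mutant mice, and the allele is not described in the sources used here. All 3 genotypes went through the same isolation, with collagenase digestion, straining, attachment to culture plastic and 2 passages. No sorting step is described, so other adherent lung cells can be present. Nothing in the labels says that the libraries of a genotype came from separate embryos or cultures, so the p-values measure only the spread between these libraries, which may be technical. In bulk RNA, fewer cells of a type and less RNA per cell cannot be told apart.

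Lipofibroblasts are interstitial lung cells that hold triglyceride droplets and pass lipid to alveolar type 2 cells for surfactant. The nuclear receptor PPARγ, encoded by Pparg, drives lipid storage programmes together with C/EBPα, encoded by Cebpa, and PPARγ ligands induce Fabp4, Cd36, Lpl and Plin2 in many cells. Lipoprotein lipase frees fatty acids from circulating triglyceride, CD36 carries them across the membrane, FABP4 and FABP5 bind them, and perilipins shield the droplet until adipose triglyceride lipase, encoded by Pnpla2, opens it. PGC-1α, encoded by Ppargc1a, is a coactivator known for mitochondrial oxidation. Macrophages use many of the same genes, among them Pparg, Cebpa, Cd36, Lpl, Fabp4, Fabp5 and Plin2, which is why Csf1r was read beside them.

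Sp family factors bind GC boxes, so the sequence upstream of the members was searched for the GC box core, GGGCGG, on both strands. RefSeq start sites on GRCm38.p6 were found for 7 members, with 9 promoters in all, and the 250 bases before each start were read. Cd36, Pnpla2 and Pparg hold the core, whereas Cebpa, Plin2, Plin4 and Ppargc1a do not in this window. Of 32851 promoters read in the same way, 32.7% hold it. The longer classical GC box, GGGGCGGGG, overlaps the core and lies in the Pnpla2 promoter and the second Pparg promoter, and in 10.4% of all promoters. The TATA box letters TATAAA are in the Cebpa promoter. In the second Pparg promoter they lie on the reverse strand only, as TTTATA on the printed strand. On either strand, 12.4% of all promoters hold them. Every motif was searched on both strands. The DR1 element bound by PPARγ with its RXR partner was searched as AGGTCANAGGTCA and was in no member promoter, against 0.0335% of all. The 3 promoters with 2 cores each are printed below with that of Cebpa, the member with the largest fold change in the null, for contrast. The first Pparg promoter, at chr6:115360894-115361143, holds 1 core on the reverse strand, 172 bases before the start, and is not printed. Capitals mark GGGCGG on the printed strand or its reverse complement CCGCCC.
Cd36 at chr5:17835897-17836146, minus strand: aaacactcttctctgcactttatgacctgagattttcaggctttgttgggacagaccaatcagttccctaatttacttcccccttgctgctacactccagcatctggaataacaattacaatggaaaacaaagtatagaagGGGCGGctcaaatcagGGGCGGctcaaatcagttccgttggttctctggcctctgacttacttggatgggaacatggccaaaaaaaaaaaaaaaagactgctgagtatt
Pnpla2 at chr7:141454938-141455187, plus strand: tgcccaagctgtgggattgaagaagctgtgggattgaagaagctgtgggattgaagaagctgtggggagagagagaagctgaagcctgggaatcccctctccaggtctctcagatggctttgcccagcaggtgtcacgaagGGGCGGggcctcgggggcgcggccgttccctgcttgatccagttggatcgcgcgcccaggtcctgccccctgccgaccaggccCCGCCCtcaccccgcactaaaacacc
Pparg at chr6:115362099-115362348, plus strand: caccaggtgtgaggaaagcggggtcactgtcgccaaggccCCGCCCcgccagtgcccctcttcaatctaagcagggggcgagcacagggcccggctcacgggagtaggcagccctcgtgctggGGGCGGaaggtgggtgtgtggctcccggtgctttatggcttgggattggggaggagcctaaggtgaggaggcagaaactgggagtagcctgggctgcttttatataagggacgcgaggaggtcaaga
Cebpa at chr7:35119043-35119292, plus strand: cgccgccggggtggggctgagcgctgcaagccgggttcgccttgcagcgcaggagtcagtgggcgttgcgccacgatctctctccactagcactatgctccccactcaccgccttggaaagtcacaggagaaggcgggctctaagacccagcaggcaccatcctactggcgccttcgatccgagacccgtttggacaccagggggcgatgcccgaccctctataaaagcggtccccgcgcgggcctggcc
In Cd36 the core occurs 2 times on the coding strand within a repeated stretch, with 1 copy 88 bases before the start. Pnpla2 and the second Pparg promoter each have 1 core on either strand, the nearest 21 and 122 bases before the start. These matches describe letters only, and binding was not measured.

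In GRCm38.p6 coordinates from RefSeq, the transcription genes lie at chr6:115360879-115490404 (Pparg), chr7:35119293-35121928 (Cebpa) and chr5:51454249-52115853 (Ppargc1a). Cd36 lies at chr5:17781690-17888959 and Lpl at chr8:68880555-68906932. Fabp5 at chr3:10012585-10016610 and Fabp4 at chr3:10204342-10208616 are near each other. Plin2 lies at chr4:86626910-86670217, Plin4 at chr17:56100587-56109948 and Pnpla2 at chr7:141455188-141460743. The files give 1 count per gene, with no split by exon or transcript.

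The authors counted reads per gene, and 9849111 to 59297495 reads fell on genes per library. Levels are given in CPM, read counts on a common library size, scaled by trimmed mean of M values (TMM), and tests are from edgeR's quasi-likelihood fit with Benjamini-Hochberg adjustment over all genes tested. A gene is called at an adjusted p below 0.05. Genes with more than 1 CPM in at least 1 library were tested, and all 10 members passed this filter. Sp3 measured 92.2, 61.4, 108 and 78.7 CPM in the 4 Sp3+/+ libraries and 18.8, 17.9 and 14.8 in the Sp3-/- libraries, with no overlap, and 52.5, 62.5, 70.8 and 56.4 in Sp3+/-. Of the markers of the labelled cell type, Col1a1, Col1a2 and Vim lay between 10.6 and 13.1 log2 CPM in every library. The macrophage lysozyme Lyz2 lay in the same range in the Sp3-/- libraries, reaching 13.0 log2 CPM, and reached 11.1 in Sp3+/+. Other mesenchyme markers were lower. Pdgfra fell to 3.38 log2 CPM in Sp3+/-, Tcf21 to 1.02 in Sp3+/+, and Meox2 was at most 0.27 in any library. Library titles carry a suffix of 2 or 3, or none, that the labels do not explain. For Sp3+/- replicate 4 the name of its deposited counts carries a suffix that its title does not, and the title was used. All 3 Sp3-/- libraries, Sp3+/+ replicate 1 and Sp3+/- replicate 4 have none, and the other 6 have one, so that suffix and genotype are nearly confounded. Csf1r divided the libraries in the same way, at 148 to 458 CPM in the 5 without a suffix and 21.2 to 40.2 CPM in the 6 with one.

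The first comparison asked how lipid storage genes differ in mesenchymal cells that lack Sp3. In Sp3-/- against Sp3+/+ cells, Cebpa, Fabp4, Fabp5 and Plin2 were called higher, by 2.75-fold to 5.75-fold, and Ppargc1a was called lower, at 0.22 of the Sp3+/+ level. Thus 5 of 10 members were called, 4 higher and 1 lower. Of all 14025 genes tested, 18.5% were called, 8.76% higher and 9.77% lower. The median log2 fold change of the members was 1.51, against -0.0032 for all genes. Only Ppargc1a had libraries that did not overlap between these genotypes, whereas 31.3% of all genes did. For Plin2, Plin4, Fabp4, Fabp5, Lpl, Cd36 and Cebpa the overlap came from Sp3+/+ replicate 1 alone, the one Sp3+/+ library without a suffix.

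Among the transcription genes, Cebpa measured 38.8, 8.43, 6.62 and 8.14 CPM in Sp3+/+ replicates 1 to 4 and 38.0, 110 and 120 CPM in Sp3-/- replicates 1 to 3. Sp3+/+ replicate 1 was level with Sp3-/- replicate 1, and the other 3 Sp3+/+ libraries were far below. The log2 fold change was 2.52 (SE 0.72, adjusted p = 0.0491, edgeR), the largest of the members. Pparg measured 11.6, 5.60, 3.86 and 3.20 CPM in Sp3+/+ and 5.43, 14.96 and 18.9 CPM in Sp3-/-. Here the lowest null library lay inside the Sp3+/+ range, and the log2 fold change of 1.11 did not pass (SE 0.55, adjusted p = 0.188, edgeR). Ppargc1a measured 2.59, 6.98, 7.15 and 2.99 CPM in Sp3+/+ against 1.25, 0.993 and 0.923 CPM in Sp3-/-. Every null library was below every Sp3+/+ library, with a log2 fold change of -2.19 (SE 0.46, adjusted p = 0.0235, edgeR). By the exon lengths used below, it was the lowest member per kilobase in each genotype.

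Of the uptake genes, Cd36, the fatty acid transporter, measured 422, 58.2, 58.7 and 43.9 CPM in Sp3+/+ and 196, 533 and 735 CPM in Sp3-/-. It had the widest spread within Sp3+/+, where replicate 1 exceeded Sp3-/- replicate 1. Its log2 fold change was 1.75 (SE 0.88, adjusted p = 0.191, edgeR) and was not called. Lpl, the lipase that releases fatty acids from lipoproteins, measured 292, 76.7, 72.7 and 63.8 CPM in Sp3+/+ and 229, 427 and 451 CPM in Sp3-/-. Again replicate 1 of Sp3+/+ lay above the lowest null library, and the log2 fold change of 1.56 did not pass (SE 0.58, adjusted p = 0.0965, edgeR).

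Both binding proteins, which carry fatty acids through the cytosol, were called higher. Fabp4 measured 39.1, 13.5, 13.0 and 10.3 CPM in Sp3+/+ and 32.9, 101 and 139 CPM in Sp3-/-, a log2 fold change of 2.26 (SE 0.61, adjusted p = 0.0425, edgeR). Fabp5 measured 71.5, 28.8, 29.2 and 33.8 CPM in Sp3+/+ and 68.9, 176 and 146 CPM in Sp3-/-, a log2 fold change of 1.68 (SE 0.43, adjusted p = 0.0363, edgeR). In each gene Sp3+/+ replicate 1 was slightly above Sp3-/- replicate 1 and the remaining libraries of the genotypes were apart. Fabp5 has processed copies in the mouse genome, and how the counting treated reads shared with them is not known.

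Of the droplet coat genes, Plin2, the perilipin of most non-adipose cells, measured 330, 153, 141 and 172 CPM in Sp3+/+ and 285, 638 and 704 CPM in Sp3-/-. By the exon lengths used below, it was the most abundant member per kilobase in each genotype. Its log2 fold change was 1.46 (SE 0.40, adjusted p = 0.0444, edgeR). Plin4, a perilipin best known from adipocytes, measured 2.67, 12.9, 13.2 and 4.41 CPM in Sp3+/+ and 1.75, 2.85 and 2.36 CPM in Sp3-/-. Its log2 fold change of -1.82 did not pass (SE 0.61, adjusted p = 0.0748, edgeR), and Sp3+/+ replicate 1 fell within the null range. Pnpla2, the lipase of the droplet, measured 90.1, 65.9, 58.1 and 69.9 CPM in Sp3+/+ and 67.8, 82.8 and 120 CPM in Sp3-/-. Its level spanned 1.05 log2 units over the 11 libraries, the least of the members, and it was not called, with a log2 fold change of 0.35 (SE 0.22, adjusted p = 0.289, edgeR).

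**Figure D1:**
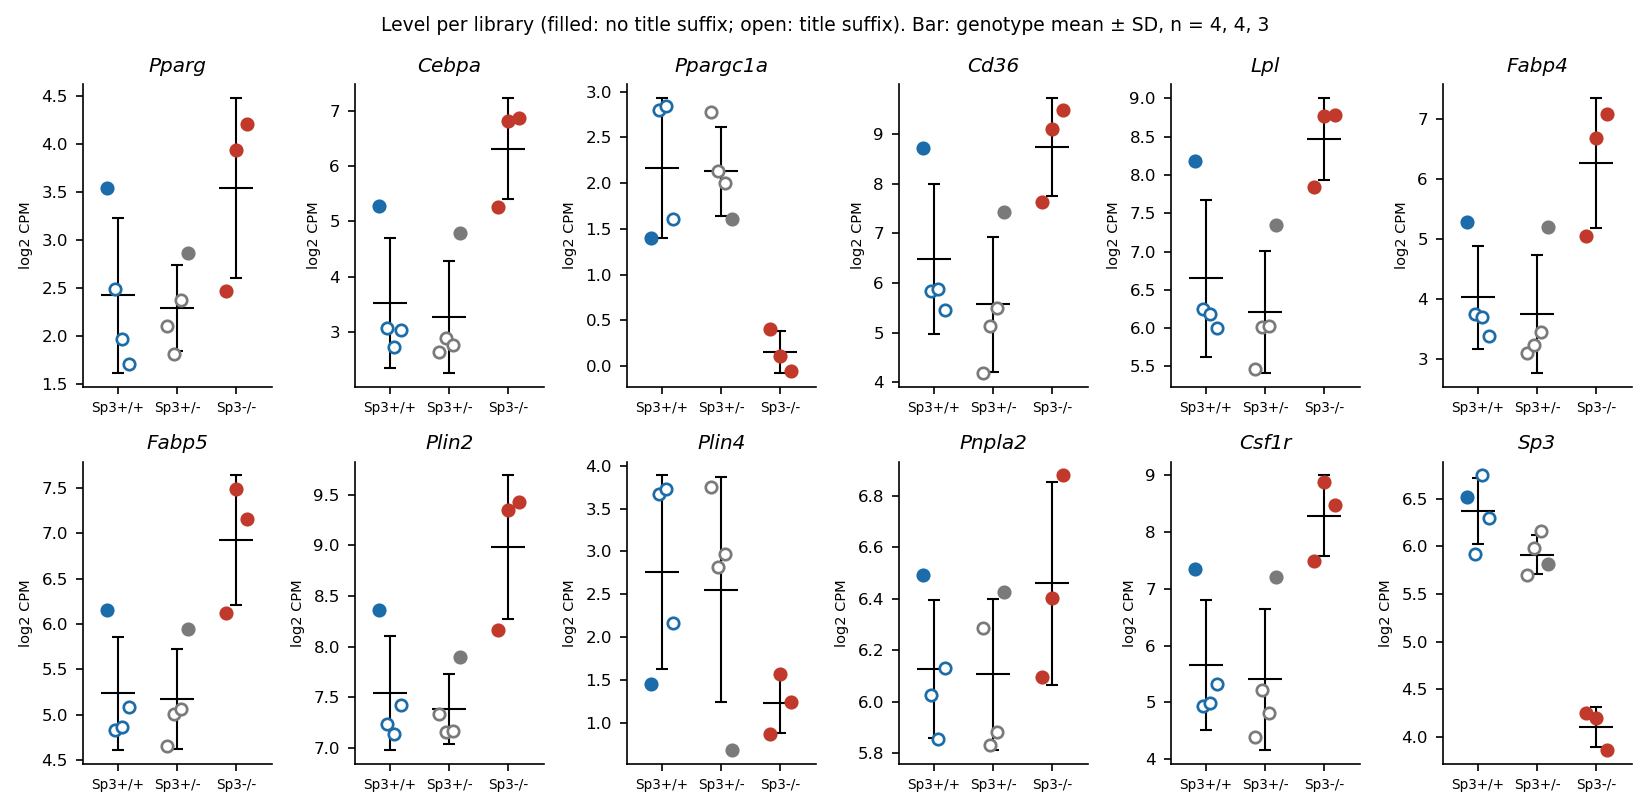
Log2 CPM of the 10 members, Csf1r and Sp3 in each of the 11 libraries by genotype, on a separate vertical scale for each gene. Filled points have no title suffix and open points have one, and bars give the mean and SD; the filled Sp3+/+ point of Cebpa, at 5.28, lies at the level of the lowest Sp3-/- point.

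Per kilobase of exon (union of exons in GENCODE vM39, which may differ from the authors' annotation), Sp3+/+ cells held most Plin2 (25.9 ± 11.5 CPM per kilobase, SD, n = 4), followed by Pnpla2 (18.04 ± 3.47), Cd36 (11.5 ± 14.6), Fabp5 (11.1 ± 5.61) and Lpl (10.3 ± 9.04). Cebpa (5.88 ± 5.90) and Fabp4 (3.84 ± 2.72) came next, and Plin4 (1.04 ± 0.693), Pparg (0.869 ± 0.546) and Ppargc1a (0.698 ± 0.350) were lowest. The union counts every annotated exon of a gene, 4953 bases for Fabp4 and 2636 for Cebpa. For Fabp4 this is longer than its RefSeq gene at chr3:10204342-10208616, so the order depends on the lengths used. Neighbours in this order did not differ beyond their spread, except that the lowest Fabp4 library, at 2.09, lay above the highest Plin4 library, at 1.66. In Sp3-/- cells Plin2 remained highest (70.6 ± 29.4, n = 3). Cebpa reached 33.9 ± 17.0, above Pnpla2 (22.9 ± 6.88) in order though within its spread, while Ppargc1a (0.150 ± 0.0246) was lowest.

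The call of these members depended on how the suffix and single libraries were treated. With the suffix in a model of all 11 libraries, none of the 10 members was called, against 9.41% of all genes, and their median log2 fold change was 0.52. Here the suffix was fitted as none, 2 or 3, and 2 is held by Sp3+/- replicate 1 alone. Since no Sp3-/- library has a suffix, telling genotype from suffix in this model rests on Sp3+/+ replicate 1 and Sp3+/- replicate 4. At an unadjusted p below 0.05, 4 members and 4063 genes passed in that model. The largest values there were Ppargc1a at -1.51 (SE 0.43, adjusted p = 0.0583, edgeR) and Cebpa at 1.31 (SE 0.44, adjusted p = 0.0948, edgeR), whereas Plin4 was at -0.10 and Pnpla2 at -0.042. Without Sp3+/+ replicate 1, 9 members were called, all but Pnpla2, and Cd36 reached 3.19 and Lpl 2.38. No member was called without Sp3+/+ replicate 2, Sp3+/+ replicate 3, Sp3-/- replicate 2 or Sp3-/- replicate 3, and 1 was called without Sp3+/+ replicate 4. At an unadjusted p below 0.05, 6 members and 3879 to 4478 genes passed in each of these 5 fits by edgeR. The calls over all genes changed with them, to 4179 of 13970 genes without Sp3+/+ replicate 1 and to between 282 and 1408 genes in the 5 fits, against 2599 as reported. With Csf1r in the model in place of the suffix, none of the members was called, against 5.7% of all genes, and the median was 0.040. At an unadjusted p below 0.05 in that fit, 1 member and 3367 genes passed. With the mean of the macrophage markers in place of Csf1r, none of the members was called, the median was -0.085, and 692 of 14130 genes were called. With Csf1r 5 members were above 0 and with the macrophage mean 4, against 8 as reported. In the fit with Csf1r, Cebpa was at 0.31 (SE 0.28), Cd36 at -0.76 (SE 0.43) and Ppargc1a at -1.02 (SE 0.44).

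**Figure D2:**
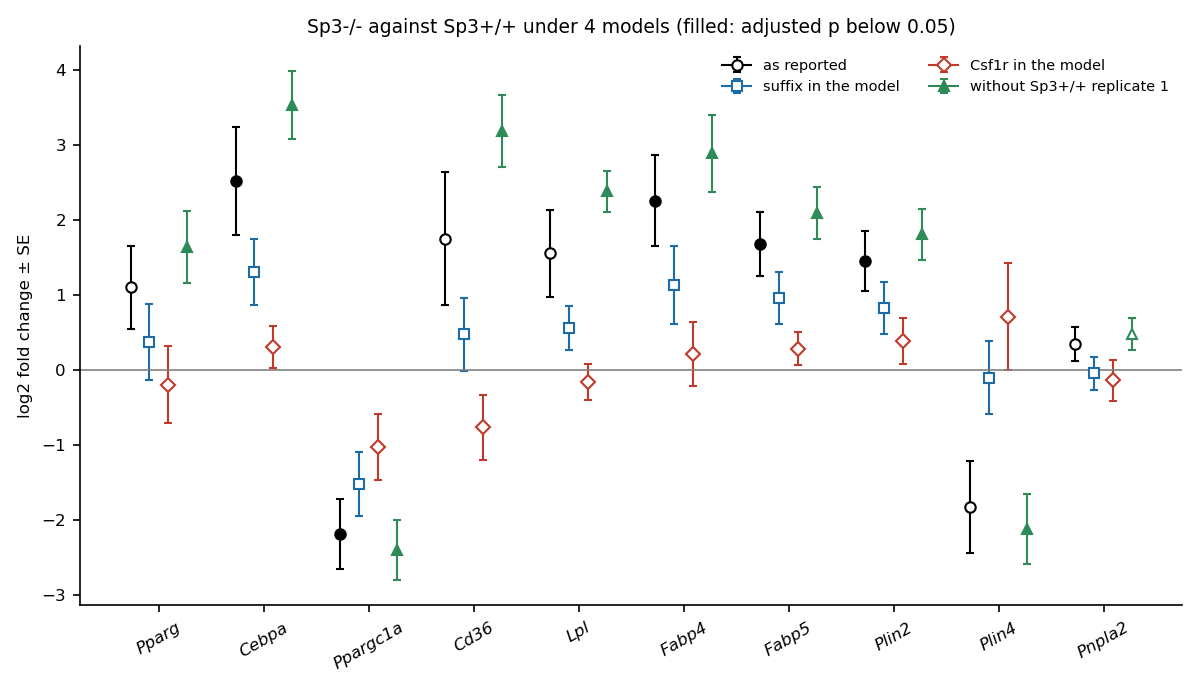
Log2 fold change ± SE of each member in Sp3-/- against Sp3+/+ cells under 4 models, filled where the adjusted p was below 0.05. Without Sp3+/+ replicate 1, 9 members were called, and with the suffix or Csf1r in the model none were.

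The second comparison asked whether these genes differ in heterozygous cells. No member was called in Sp3+/- against Sp3+/+ cells, and 0% of 14130 genes were, by edgeR, limma-voom or DESeq2. At an unadjusted p below 0.05, edgeR found 246 genes, limma-voom 303 and DESeq2 281, with none of the members among them. All 10 members had log2 fold changes below 0, from -1.10 for Cd36 (SE 0.88) to -0.025 for Pnpla2 (SE 0.21), with a median of -0.22 against -0.016 for all genes. The libraries of these genotypes overlapped for every member, and 1.39% of all genes did not overlap. Sp3+/- replicate 4, without a suffix, was the highest Sp3+/- library for 8 members, such as Cd36 at 174 CPM against 18.4, 34.8 and 44.9. Cebpa measured 27.6 CPM in this library against 6.24, 7.31 and 6.70. It was the lowest for Ppargc1a, at 2.99 CPM against 6.89, 4.27 and 3.91, and for Plin4, at 1.54 CPM against 13.6, 6.89 and 7.67.

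Against Sp3+/- cells, Sp3-/- cells had higher Cebpa, Fabp4, Lpl, Fabp5 and Plin2 and lower Ppargc1a. Of the 10 members 6 were called, 5 higher and 1 lower, against 25.5% of all genes (13% higher and 12.5% lower). Cebpa differed by 2.91 on the log2 scale (SE 0.76, adjusted p = 0.0219, edgeR), Fabp4 by 2.47 (SE 0.68, adjusted p = 0.0250) and Lpl by 2.13 (SE 0.60, adjusted p = 0.0281). Fabp5 differed by 1.77 (adjusted p = 0.0156, edgeR), Plin2 by 1.66 (adjusted p = 0.0117) and Ppargc1a by -2.06 (adjusted p = 0.0111). Cd36 was at 2.84 and just outside the threshold (SE 0.97, adjusted p = 0.0529, edgeR). The Sp3-/- libraries lay above all Sp3+/- libraries for Plin2, Fabp5, Lpl, Cd36 and Cebpa and below them for Ppargc1a, and 34% of all genes did not overlap here. Sp3+/- and Sp3-/- libraries overlapped for Pparg, Fabp4, Plin4 and Pnpla2. This comparison shares its Sp3-/- libraries with the one above. With the suffix in the model no member was called, against 5.4% of all genes. In that model 6 members and 3677 of 14130 genes passed an unadjusted p of 0.05 in edgeR. The count of members called fell to 2 without Sp3-/- replicate 2. It fell to 3 without Sp3-/- replicate 3 or any of Sp3+/- replicates 1 to 3. The calls over all genes were fewer in these leave-out fits too, at 1490 to 2405 against 3607.

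Read against Csf1r, the members separated into 8 that were higher where Csf1r was higher and 2, Ppargc1a and Plin4, that were lower. Csf1r itself measured 163, 31.1, 32.0 and 40.2 CPM in Sp3+/+, 21.2, 36.6, 27.7 and 148 CPM in Sp3+/- and 179, 458 and 365 CPM in Sp3-/-. Its log2 fold change in Sp3-/- against Sp3+/+ cells was 2.33, with libraries that did not overlap and a p just outside the threshold (SE 0.67, adjusted p = 0.0501, edgeR). The slope is the change of a member, in log2 units, for each log2 unit of Csf1r. Over the 11 libraries the slope was called for all 10 members, 8 above 0 and 2 below, and for 41.3% of all genes (20.8% above and 20.6% below). With genotype in the model 9 members were called, 7 above 0 and 2 below, against 14.7% of all genes (7.87% above and 6.88% below).

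Cebpa had a slope of 1.03 (SE 0.046, adjusted p = 9.47e-09, edgeR) over all libraries and 0.95 (SE 0.075, adjusted p = 2.14e-05) within genotype, but of 0.38 (SE 0.25) among the 6 libraries with a suffix. The ratio of Cebpa to Csf1r spanned 0.81 log2 units across the 11 libraries, although Cebpa itself spanned 4.24 and Csf1r 4.48. Cd36 had slopes of 1.07 (SE 0.094) and 1.15 (SE 0.12), and its ratio spanned 1.57 log2 units of a range of 5.30. The slopes were lower for Fabp4 (0.86 and 0.80), Lpl (0.75 and 0.75), Fabp5 (0.60 and 0.54), Plin2 (0.51 and 0.41) and Pparg (0.47 and 0.51), each called in both models. Pnpla2 hardly moved, at 0.15 (SE 0.043, adjusted p = 0.0159, edgeR) and 0.18 (SE 0.075, adjusted p = 0.124). Ppargc1a had slopes of -0.61 and -0.42 and Plin4 of -0.61 and -0.84. The ratios of both to Csf1r spanned more than the genes themselves did, 7.15 and 6.66 log2 units. So did the ratios of Pnpla2 (4.36 against 1.05), Pparg (2.74 against 2.50) and Plin2 (2.46 against 2.29).

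**Figure D3:**
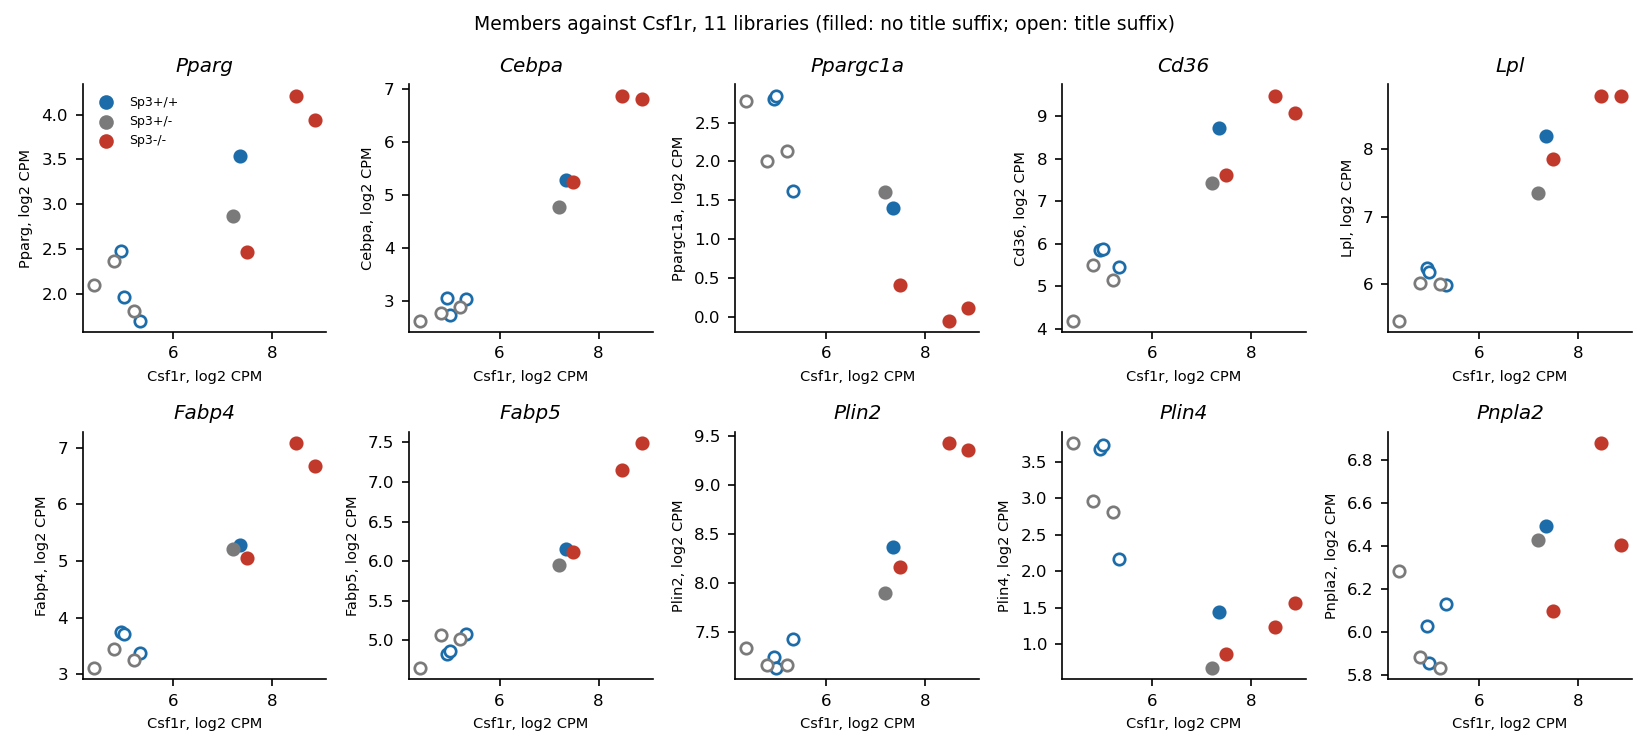
Log2 CPM of each member against that of Csf1r in the 11 libraries, coloured by genotype, filled without and open with a title suffix. The libraries form 2 clusters along the Csf1r axis that coincide with the suffix, and Ppargc1a and Plin4 are the 2 members that run downwards.

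The libraries form clusters along Csf1r that are the libraries with and without a suffix, so no correlation of a member with Csf1r over all 11 is given and each relation was read within them. In the 6 libraries with a suffix, where Csf1r stayed within 21.2 to 40.2 CPM, no member had an exact 2-sided permutation p below 0.05 for Pearson's r or Spearman's rho. Of these 10 relations, the r of Fabp5 was highest (0.78, exact permutation p = 0.0583, rho 0.66), and that of Plin4 was lowest (-0.70, exact permutation p = 0.113, rho -0.77). The r of Fabp5 was -0.028 once the 2 libraries farthest from the median of Csf1r were left out. No slope was called by edgeR among these 6 libraries, where 496 genes and no member had an unadjusted p below 0.05, and those of Pparg (-0.60), Pnpla2 (-0.27) and Plin2 (-0.0040) were below 0 there. In the 5 libraries without a suffix, 148 to 458 CPM of Csf1r, Cebpa (1.28, SE 0.15, adjusted p = 0.0256, edgeR) and Fabp5 (0.92, SE 0.076, adjusted p = 0.0158) were called, and Plin4 was at 0.30 (SE 0.27). With the suffix in the model of all 11 libraries 5 members were called, all above 0, against 4.06% of all genes. These were Cebpa (1.13), Fabp4 (1.05), Fabp5 (0.83), Plin2 (0.72) and Lpl (0.69). With both genotype and suffix in the model only Fabp5 was called (0.85, SE 0.13, adjusted p = 0.0377, edgeR), against 0.368% of all genes.

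**Figure D4:**
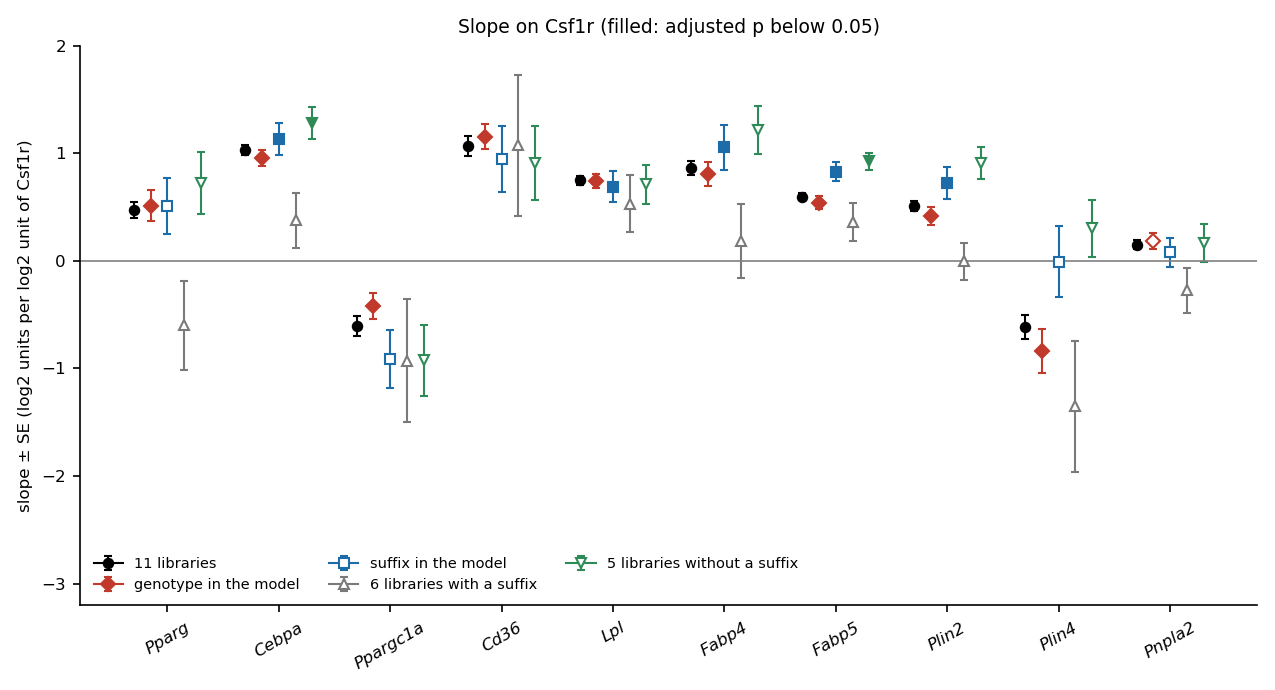
Slope ± SE of each member on Csf1r in 5 fits, filled where the adjusted p was below 0.05. Within the 6 libraries with a suffix no slope was called, and the slope of Plin4 was -0.61 over all libraries and 0.30 within the 5 libraries without a suffix.

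The libraries without a suffix were also set directly against those with one, with genotype in the model, a comparison chosen after the values were seen. Here 6 of 10 members were called, 5 higher and 1 lower, against 9.6% of all genes (5.38% higher and 4.22% lower). Cd36 was higher by 2.70 (SE 0.40, adjusted p = 0.0062, edgeR), Cebpa by 2.18 (SE 0.32, adjusted p = 0.0062) and Lpl by 1.78 (SE 0.23, adjusted p = 0.0062) on the log2 scale. Fabp4 was higher by 1.81 and Fabp5 by 1.13, and Plin4 was lower at -2.21 (SE 0.49, adjusted p = 0.0242, edgeR). Ppargc1a was at -0.93 (SE 0.37, adjusted p = 0.130, edgeR). The comparison rests on Sp3+/+ replicate 1 and Sp3+/- replicate 4, since all null libraries are without a suffix, and no member was called when either of them was left out. At an unadjusted p below 0.05, 6 members passed in edgeR without the former and 8 without the latter. Over all genes, 0 of 14087 were called without the former (1518 at an unadjusted p below 0.05) and 12 of 14114 without the latter (2829). With Csf1r added to the model no member and none of the 14130 genes was called, and 1 member and 779 genes passed an unadjusted p of 0.05.

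The genes whose levels were most alike to each member were named by Pearson's r over the 11 libraries, among 12214 genes with a mean of at least 1 log2 CPM. These values describe libraries in 2 clusters and carry no test. Nearest to Cebpa were Apoe (0.998), Nckap1l (0.996) and Itgb2 (0.996), and nearest to Lpl were Casp1 (0.997), Tnfaip8l2 (0.995) and Cd300lb (0.995). Itgb2 encodes the β2 integrin of leukocytes and Nckap1l an actin regulator of blood cells. Nearest to Cd36 were Rgs1, Pirb and Lpl (0.990 to 0.992). Fabp4 was nearest to Etv3, Cln8 and Anpep (0.994 to 0.995), and Fabp5 to Grap, 3110043O21Rik and Apobec1 (0.994 to 0.995). Plin2 was nearest to Psap (0.997), a lysosomal saposin precursor, and then to Ptpn1 and Gltp. Pparg was nearest to Cpeb1, Mfsd1 and Blvra (0.964 to 0.966). Ppargc1a had different neighbours, Insig1 (0.976), which restrains sterol synthesis, and Pcolce (0.976), a procollagen processing enhancer. Plin4 was nearest to Sned1 (0.988), Dchs1 and Clmp, and Pnpla2 to Psmd8 (0.961), Psmb6 and Slc3a2, the first 2 of which encode proteasome subunits.

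In Sp3-/- against Sp3+/+ cells, the other genes of the lipid storage pathway held calls in both directions. Of 21 transcription genes tested with PPARγ, Rxra, its partner receptor, was called higher (0.81, adjusted p = 0.0229, edgeR), and Ppara, Ebf2 and Ebf1 were called lower (-2.62, -2.48 and -1.86). The median of this list was 0.045. None of 9 droplet coat and assembly genes was called, and Plin1 and Cidec, the droplet proteins of adipocytes, had at most 2 counts in a library. Of 14 triglyceride synthesis genes, Lpin3 (-1.72, adjusted p = 0.0293, edgeR) and Agpat6 (-0.42, adjusted p = 0.0439) were called lower and none higher. Of 10 lipolysis genes only Ddhd1 was called, higher by 0.52. The 19 other uptake genes split into 5 called higher and 4 called lower. The scavenger receptors Olr1 (2.67, adjusted p = 0.0073, edgeR) and Msr1 (2.50, adjusted p = 0.0327) were highest, and the fatty acid transporter Slc27a3 (-1.76) and the acyl-CoA synthetase Acsl3 (-1.10) were lowest.

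The lipoprotein lipase cofactor Apoc2 was called higher by 3.29 on the log2 scale (adjusted p = 0.0276, edgeR), and Apoe and Apoc1 by 3.14 and 2.62. Apoc1 had at most 39 counts in a library. With Lmf2, a lipase maturation factor called lower (-0.52), 4 of the 9 tested genes that act on this lipase were called. Gpihbp1, which anchors the lipase to capillaries, had no count in any library. Of 19 oxidation genes, 2 were called higher and 4 lower. Among them, Ucp2 was called higher (2.44, adjusted p = 0.0170, edgeR), and Ehhadh (-0.82), Cpt1c (-0.56) and Cpt2 (-0.46) were called lower. Of 11 further lipofibroblast genes, Fgf10, a growth factor of the lipofibroblast lineage, was called lower (-2.54, adjusted p = 0.0329, edgeR) with Limch1 (-1.27), and Wnt2 was called higher (2.12). With the suffix in the model, Ppara (-1.996), Ebf1 (-1.80), Olr1 (2.27), Msr1 (1.42), Lmf2 (-0.39) and Ucp2 (1.60) remained called among the genes named here, whereas Fgf10 was at -2.43 (adjusted p = 0.0614, edgeR).

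**Figure D5:**
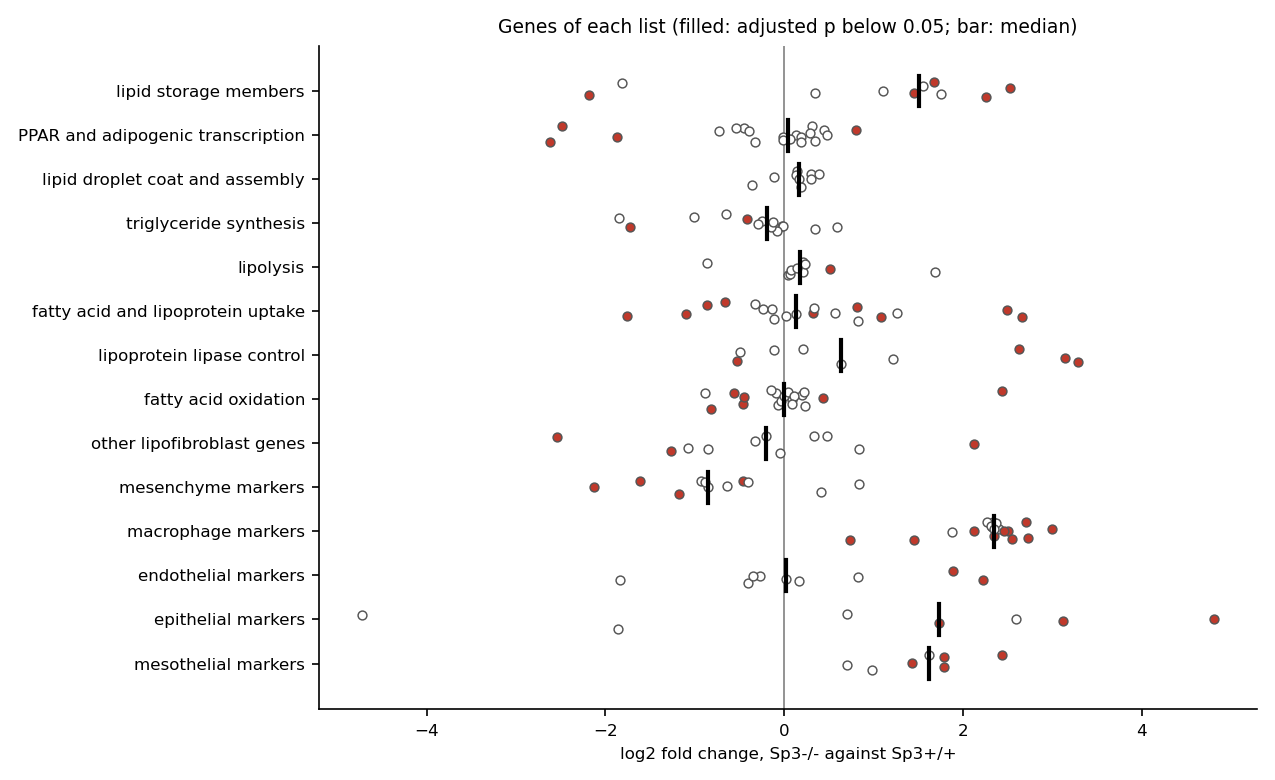
Log2 fold change in Sp3-/- against Sp3+/+ cells of every tested gene of the members, the pathway lists and the marker lists, filled where the adjusted p was below 0.05, with a bar at the median. The medians of the pathway lists lie between -0.20 and 0.64, those of the members at 1.51 and of the macrophage markers at 2.35.

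Markers of other cells also differed between the libraries, and beyond the fits with Csf1r and the macrophage mean their part in these results was not tested. Not all of them followed the members. Over Sp3-/- replicates 1 to 3 the members summed to 925, 2086 and 2437 CPM and the mesothelial markers to 5960, 3084 and 2163 CPM. Of 18 macrophage markers, 10 were called higher and none lower in Sp3-/- against Sp3+/+ cells, with a median of 2.35. Their summed level was 3582 CPM in Sp3+/+ replicate 1 and 704 to 985 CPM in the other Sp3+/+ libraries. It was 3331 CPM in Sp3+/- replicate 4 and 432 to 734 CPM in the other Sp3+/- libraries, and 3412, 12253 and 11352 CPM in the Sp3-/- libraries. The 12 mesenchyme markers summed to 7270 to 18939 CPM in Sp3-/-, 13123 CPM in Sp3+/+ replicate 1 and 20754 to 22186 CPM in the other Sp3+/+ libraries. Of the mesenchyme markers, 11 were tested in this comparison, 4 were called lower and none higher. Those called lower were Pdgfrb (-2.13), Foxf1 (-1.61), Tbx5 (-1.17) and Vim (-0.46). Col3a1 (0.41) and Tcf21 (0.83) were above 0 and not called. The 8 adipocyte markers summed to 1.66 to 5.02 CPM, and Adrb3, the only one tested, was called higher by 0.95. Their defining genes were at or near 0, with at most 4 counts of Adipoq, 8 of Lep, 2 of Plin1 and none of Cfd in any library. Of 7 mesothelial markers 4 were called higher, and all 7 summed to 2163 to 5960 CPM in Sp3-/- against 743 to 1732 CPM in Sp3+/+. Of 7 epithelial markers tested 3 were called higher. The 10 listed summed to 54.1 to 177 CPM in Sp3-/- against 24.6 to 49.5 CPM in Sp3+/+, with at most 66 counts of Sftpc. Of 9 endothelial markers tested 2 were called higher, and the 10 listed summed to 87.9 to 129 CPM in Sp3-/- and 38.1 to 103 CPM in Sp3+/+. The erythroid list had 2 tested genes, of which Alas2 was called higher by 1.66, and its 4 globin genes had no count. How the counting treated reads shared among the globin genes is not known.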

How the data were processed

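The authors prepared TruSeq libraries from total RNA of the cultured cells, sequenced 50 base single end reads, and, per the labels, used FastQC 0.10.1, STAR 2.4.5a and HTSeq with mm10 (GRCm38). The deposited values are raw counts per gene symbol. The annotation and strand setting are not given in the sources used here. The 5 tallies of unassigned reads, 38.4 to 40.9% of each library, were left out. Groups came from the genotype label, and replicates were numbered in accession order.

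Counts were fitted with edgeR 4.0.16 (TMM, robust glmQLFit, glmQLFTest) in R 4.3.3 over genes above 1 CPM in at least 1 library. Sp3-/- against Sp3+/+ used their 7 libraries, or all 11 with a suffix, Csf1r or macrophage covariate. All other fits used all 11, except slopes within the 6 libraries with and the 5 without a suffix. In the comparisons of genotypes the suffix was fitted as none, 2 or 3. In the slopes and the suffix comparison it was fitted as present or absent. Log2 CPM values use a prior count of 2, and each SE is implied by the test statistic. The members and lists were chosen with earlier results of these data known. Named genes are the members, Csf1r, Sp3, at most 4 called genes of each pathway list by size of change, 3 companions of each member, and markers where needed. One companion of Ppargc1a is not reported here. For 6 listed genes an older symbol was matched, and 1 was not in the files. Pooled correlations with Csf1r are not given because the libraries cluster. The lowest chi-square per degree of freedom between 2 libraries of a genotype was 15.8 over 15 pairs. On simulated counts of Sp3-/- against Sp3+/+ with 14025 genes, edgeR recovered 41 of 100 genes changed by 1 log2 unit and 80 of 100 changed by 2, with 7 false calls. Each simulated gene varied on its own, so these counts do not cover differences that many genes share between the clusters of libraries. Alternatives used DESeq2 1.42.0 and limma 3.58.1 (voom). Exact permutation tests, motifs and figures used Python 3.11.15 and matplotlib 3.10.9.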

Additional observations from a re-analysis of the deposited data

Results flagged for a closer look

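Within the Sp3+/+ and Sp3+/- groups of 4, a single library stood apart by Dixon's test on log2 CPM in 6 of 22 gene and group pairs. Chance gives about 1 in 20 for a single pair. The pairs share libraries and the genes vary together across them, so 6 of 22 cannot be read against that rate. In Sp3+/+, replicate 1 was the high library for Lpl at 8.19 log2 CPM (the next was 6.25), Cd36 at 8.72 (next 5.87), Cebpa at 5.28 (next 3.07) and Csf1r at 7.35 (next 5.33). In Sp3+/-, replicate 4 was the high library for Fabp4 at 5.21 log2 CPM (next 3.45) and Cebpa at 4.79 (next 2.90). Both libraries are without a title suffix. The 3 Sp3-/- libraries were too few for this test.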

How the results depend on the processing

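In Sp3-/- against Sp3+/+, the 5 members called became 8 with the first number of the titles as a replicate block, 7 by DESeq2, 3 by limma-voom, 6 by limma-voom with a consensus correlation within that number, and 1 with every counted gene tested. They became 0 with the title suffix, Csf1r or the mean of macrophage markers as a covariate, and 0 among libraries without a suffix only, a fit with a lone Sp3+/+ library assumed to vary like the others and chosen after seeing the data. The count ranged from 0 to 9 with single libraries left out. With the macrophage mean, Fabp4 turned to -0.018, and of the members that were not called Cd36 (-1.01), Pparg (-0.40), Lpl (-0.28), Pnpla2 (-0.15) and Plin4 (0.68) had the opposite sign. With Csf1r these 5 had the opposite sign too. In Sp3-/- against Sp3+/- the 6 called became 9 by DESeq2 and 0 with the suffix covariate and ranged from 2 to 8 with single libraries left out. With the block as a term, the counts of members in Sp3-/- against Sp3+/- and Sp3+/- against Sp3+/+ did not change, and no block was fitted for the slopes or the suffix comparison. The titles do not say that the first number marks a shared litter, and the consensus correlation within it was 0.106. Sp3+/- against Sp3+/+ gave 0 in each of its fits. Over all genes, the 2599 calls in Sp3-/- against Sp3+/+ became 4297 by DESeq2, 3977 with all 11 libraries in the fit and 4031 with the block. By limma-voom they became 2493, with the consensus correlation 3033, and with every counted gene tested 2197 of 19959. From the 3977 with all 11 libraries they became 1329 with the suffix, 805 with Csf1r and 692 with the macrophage mean. They became 0 among libraries without a suffix, and 282 to 4179 with single libraries left out. The 3607 calls in Sp3-/- against Sp3+/- became 763 with the suffix and 1490 to 4245 with single libraries left out.

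Of the slopes on Csf1r over all libraries, 10 were called, against 5 with the suffix in the model, 0 in the 6 libraries with a suffix and 2 in the 5 without one. Pparg (-0.60), Pnpla2 (-0.27) and Plin2 (-0.0040) turned sign within the former and Plin4 (0.30) within the latter. Over all genes, 5840 slopes were called, against 573, 0 and 228 in these fits. Within genotype, 9 became 1 with the suffix in the model, and 5 to 9 with single libraries left out. These suffix fits were also chosen after seeing the data. For libraries without against with a suffix, 6 became 0 with Csf1r in the model, where Cebpa (-0.11), Fabp4 (-0.55) and Fabp5 (-0.84) turned sign, as did Plin2 (-0.56), Pparg (-0.43) and Ppargc1a (0.50), which had not been called, and 0 to 8 with single libraries left out. The cause of these changes was not tested, and suffix, genotype and Csf1r cannot be told apart with 11 libraries. What depth limits was not tested by thinning, and the least sequenced library held 9849111 reads on genes.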
